A study of Homo sapiens with 1 sample.

Results

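The miR-181 family was read on 1 single-colour Agilent microarray of DLD-1, an established human colorectal carcinoma (CRC) cell line, that had been given negative control siRNA (si-NC, n = 1 array). Its members were the miRNA spots of the array whose listed name was hsa-miR-181a-5p, hsa-miR-181a-3p, hsa-miR-181a-2-3p, hsa-miR-181b-5p, hsa-miR-181c-5p, hsa-miR-181c-3p or hsa-miR-181d-5p (written without the species prefix below), which gave 7 of the 2549 miRNAs and 140 of the 50980 miRNA spots. The study compared this control with depletion of the circular RNA circLONP2, and the depleted cells were not analysed here. There was thus no second group and no replicate array, so no p-value was computed. Apart from 1 counting interval on a share of arm pairs, every error below is technical. These errors are taken from replicate spots or from the error that the scanner software attaches to a signal.

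A miRNA gene is transcribed as a long primary RNA that carries a hairpin, and Drosha and then Dicer cut out a short duplex of the 5p and the 3p arm. In the miR-181 family the 5p arm is the usual guide strand, which is loaded into Argonaute and finds target mRNAs through its seed, bases 2 to 8, while the 3p arm is usually the less stable partner. The family is best known for setting signalling thresholds in developing lymphocytes, and it has also been studied in carcinomas.

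RefSeq lists 6 miR-181 hairpins in 3 pairs, on chromosomes 1, 9 and 19 of GRCh38.p14. MIR181A1 and MIR181B1 lie within the span of the lncRNA gene MIR181A1HG, MIR181A2 and MIR181B2 within those of the lncRNA gene MIR181A2HG and the protein-coding NR6A1, and MIR181C and MIR181D within that of NANOS3. The mature sequences are shown because they decide what each probe set can tell. Capitals mark the seed. The 5p arms were as follows, written 5′ to 3′:
miR-181a-5p: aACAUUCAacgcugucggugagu
miR-181b-5p: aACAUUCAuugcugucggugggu
miR-181c-5p: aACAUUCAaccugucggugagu
miR-181d-5p: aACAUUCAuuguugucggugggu

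All 4 shared the seed ACAUUCA. With positions counted from 1 at the 5′ end and the base of the first-named miRNA given first, miR-181b-5p and miR-181d-5p differed by the single substitution C12U, and miR-181a-5p and miR-181c-5p by the loss of 1 base (G11del). The step from miR-181a-5p to miR-181b-5p took 3 substitutions (A9U, C10U and A21G). Identical copies of miR-181a-5p are encoded by MIR181A1 and MIR181A2, and identical copies of miR-181b-5p by MIR181B1 and MIR181B2, so a 5p signal of either cannot be assigned to chromosome 1 or 9.

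Each 3p arm is encoded by 1 hairpin, so its signal was read for that hairpin, with the binding of the probes to other arms not tested. The array also carried probes for miR-181b-3p, miR-181b-2-3p and miR-181d-3p, 3 arms outside the 7 members, which are given with them to complete the hairpins:
miR-181a-3p (MIR181A1): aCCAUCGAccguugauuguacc
miR-181b-3p (MIR181B1): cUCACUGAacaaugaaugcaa
miR-181a-2-3p (MIR181A2): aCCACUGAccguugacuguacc
miR-181b-2-3p (MIR181B2): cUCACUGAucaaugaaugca
miR-181c-3p (MIR181C): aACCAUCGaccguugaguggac
miR-181d-3p (MIR181D): cCACCGGGggaugaaugucac

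Here the members had no common seed. The shared seed UCACUGA joined miR-181b-3p and miR-181b-2-3p, which differed by A9U and by 1 further A at the 3′ end of the former. From miR-181a-3p to miR-181a-2-3p there were 3 substitutions (U5C, C6U and U16C), and miR-181c-3p stood 4 edits away from miR-181a-3p, with a further A at its 5′ end, U16G, U19G and C21del.

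The precursors of 5 hairpins show where the arms sit. Capitals mark both mature arms, the 5p arm first. MIR181A1 is on the minus strand at chr1:198859044-198859153, MIR181B1 on the minus strand at chr1:198858873-198858982, MIR181A2 on the plus strand at chr9:124692442-124692551, MIR181C on the plus strand at chr19:13874699-13874808 and MIR181D on the plus strand at chr19:13874875-13875011:
MIR181A1: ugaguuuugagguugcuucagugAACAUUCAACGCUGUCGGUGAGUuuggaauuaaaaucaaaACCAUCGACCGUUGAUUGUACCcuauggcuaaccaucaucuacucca
MIR181B1: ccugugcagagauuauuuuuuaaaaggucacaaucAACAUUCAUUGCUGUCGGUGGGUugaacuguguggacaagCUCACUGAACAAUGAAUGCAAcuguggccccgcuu
MIR181A2: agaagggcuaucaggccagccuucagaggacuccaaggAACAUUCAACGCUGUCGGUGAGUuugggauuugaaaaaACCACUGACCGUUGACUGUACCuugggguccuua
MIR181C: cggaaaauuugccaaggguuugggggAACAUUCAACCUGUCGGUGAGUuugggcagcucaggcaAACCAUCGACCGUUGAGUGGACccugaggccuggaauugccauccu
MIR181D: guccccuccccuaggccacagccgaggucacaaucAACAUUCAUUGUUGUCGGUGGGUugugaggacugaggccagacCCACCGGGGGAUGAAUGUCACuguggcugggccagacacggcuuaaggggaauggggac

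Signal was first read against background. Negative control spots had a median of 0.0894 and a 99th percentile of 16.1 in background-subtracted intensity, and no spot of the array was saturated. The software calls a miRNA detected when at least 1 of its probes passes 3 times its error, and then sums the probes past that limit into a total gene signal. Of the 8 colon epithelial marker miRNAs, 8 were detected, with total gene signals from 319 to 9249. Detected markers of other tissues were 3 of 4 for blood (miR-142-3p, miR-223-3p and miR-451a, from 21.5 to 695), 0 of 4 for muscle, 1 of 4 for stroma and vessel (miR-126-3p, 123) and 1 of 2 for nerve (miR-9-5p, 22.1). Together these were 5 of 14, beside the 44.4% of all miRNAs that were detected. The blood and nerve lists lay above that share, and the muscle list and the stroma and vessel list below it. In signal, the brightest blood marker (695) exceeded the dimmest colon epithelial marker (319).

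The software called 6 of the 7 members detected, where it called 44.4% of all miRNAs on the array. The exception was miR-181c-3p. By arm, 4 of 4 miR-181 5p arms were detected against 49.1% of all 5p arms, and 2 of the 3 member 3p arms against 43.8% of all 3p arms. With the 3 further arms, 3 of 6 3p arms were detected, a share close to that background and so no result about the family. Other rules gave the same 6 members, where they called 37.9% of all miRNAs (at least 50% of the spots on 1 probe well above background), 31.0% (median spot over that 99th percentile) and 33.3% (the flag with a total gene signal of 5 or more). The rule that asked every probe for 50% such spots, which called 29.4% of all miRNAs, kept 4 members and lost miR-181a-2-3p and miR-181c-5p.

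**Figure D1:**
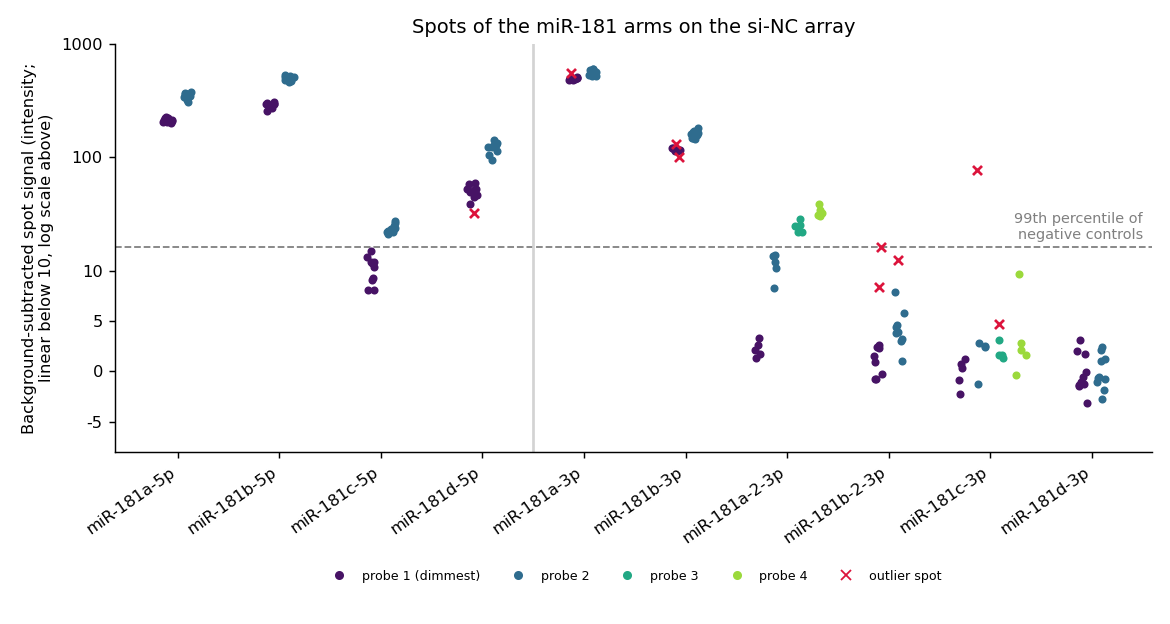
Background-subtracted signal of every spot (y axis, intensity, linear below 10 and on a log scale above) for the 10 miR-181 arms on the si-NC array. Points are replicate spots, colours are the different probes of an arm from dimmest to brightest, crosses are outlier spots, and the dashed line is the 99th percentile of negative control spots (16.1). The arms miR-181a-5p, miR-181b-5p, miR-181d-5p, miR-181a-3p and miR-181b-3p lie wholly above the line, miR-181c-5p and miR-181a-2-3p cross it, and the other 3 lie at or below it apart from 1 outlier spot of miR-181c-3p.

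Among the guide arms, miR-181a-5p had a total gene signal of 103 ± 7.55 (error from the software). Its 20 spots ran from 203 to 376 with a median of 267, and all 20 were well above background. For miR-181b-5p the total gene signal was 144 ± 10.6, with spots from 256 to 530 around a median of 385. Every spot of these 2 miRNAs thus lay far above the negative controls. Each total is over 2 probes, and the signals of different miRNAs are given side by side without an order of abundance, since probes differ in how they bind.

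The guide arm of MIR181D, miR-181d-5p, had a total gene signal of 31.6 ± 2.52. Its 19 spots kept after removal of 1 outlier ran from 38.9 to 143 with a median of 95.7, and 20 of 20 spots were well above background. The guide arm of MIR181C, miR-181c-5p, was close to background, with a total gene signal of 6.32 ± 0.828 and spots from 8.08 to 27.3 around a median of 17.9. Of its 20 spots 12 were well above background, and 10 exceeded the 99th percentile of negative controls. These 10 were the spots of its brighter probe (mean 23.7 ± 2.01, SD, 10 spots), while the dimmer probe averaged 10.9 ± 2.25 (SD, 10 spots), with 2 spots well above background.

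The 3p arms were then used to read the hairpins one at a time. On chromosome 1 both hairpins gave a clear 3p signal. The 3p arm of MIR181A1, miR-181a-3p, had a total gene signal of 193 ± 13.7, with 19 spots from 479 to 606 around a median of 518. The arm of MIR181B1, miR-181b-3p, had 50.8 ± 3.70, with 18 spots from 114 to 180 around a median of 147. For both, 20 of 20 spots were well above background.

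The pair on chromosome 9 gave little 3p signal, which does not show that its hairpins were inactive. Its share of the miR-181a-5p and miR-181b-5p signals was not tested. For miR-181a-2-3p, the 3p arm of MIR181A2, the total gene signal was 6.37 ± 0.573 over the 3 of its 4 probes that passed 3 times their error, and its 20 spots ran from 1.33 to 38.9 with a median of 17.8. All spots of its brighter probes, with means of 33.5 ± 3.47 and 24.5 ± 2.75 (SD, 5 spots each), exceeded the 99th percentile of negative controls. The remaining probes, with means of 11.6 ± 2.27 and 2.23 ± 0.793 (SD, 5 spots each), had none above it. For miR-181b-2-3p, the 3p arm of MIR181B2, no probe passed 3 times its error. Its 17 spots kept ran from -0.792 to 7.87, within the range of the negative controls. The 3 outlier spots read 8.35, 12.5 and 16.0, and the spot at 16.0 was called well above background.

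On chromosome 19 neither 3p arm was detected. The 18 spots of miR-181c-3p kept ran from -2.19 to 9.65 with a median of 1.61, and the highest ratio of a probe's signal to its error was 1.20. Of its 2 outlier spots, 1 read 77.5 and was well above background, whereas the 4 other spots of that probe averaged 1.65 ± 1.92 (SD). The 20 spots of miR-181d-3p ran from -3.14 to 3.17 with a median of -0.596, and 0 of 20 were well above background. Both hairpins of this pair were therefore read as detected on the 5p arm and not detected on the 3p arm.

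**Figure D2:**
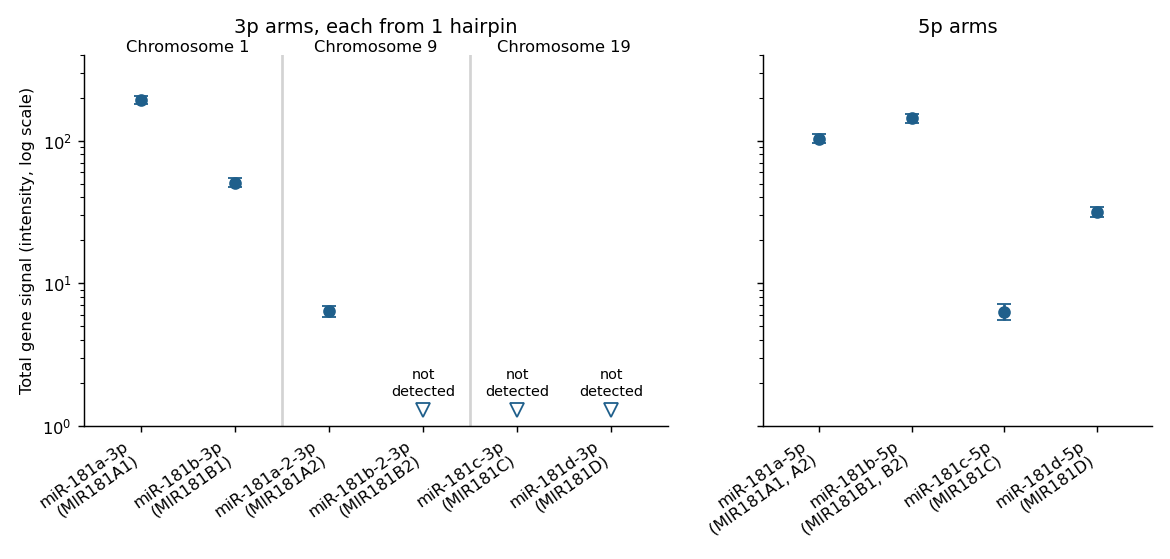
Total gene signal (y axis, intensity, log scale) of the 3p arms by hairpin and chromosome (left) and of the 5p arms (right) on the si-NC array. Points are total gene signals, bars are the errors of the software, and open triangles are arms called not detected, which have no level and stand at an arbitrary height. The 3p arms of chromosome 1 lie at 193 and 50.8, that of MIR181A2 at 6.37, and those of MIR181B2, MIR181C and MIR181D were not detected, while all 4 5p arms carry a point.

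In terms of arm pairs, miR-181a and miR-181b had both arms detected, and miR-181c and miR-181d the 5p arm alone. Over the array, 28.6% of 810 pairs of 5p and 3p arms with a common miRNA name had both arms detected (95% Wilson interval 25.6% to 31.9%, counting error only), 20.1% the 5p arm alone, 15.1% the 3p arm alone and 36.2% neither. The interval takes the pairs as independent and covers neither the spread between arrays nor the choice of detection rule. Where the 5p arm was detected, the 3p arm was too in 58.7% of 395 pairs. The 2 of 4 in this family lie near that share and set it apart in neither direction.

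Near-identical arms were set beside each other to see how the probes separated them. The probes of miR-181b-2-3p stayed within the range of negative controls on the same array on which miR-181b-3p, which differs by A9U and the terminal A, read 50.8. Apart from 1 outlier spot at 77.5, the probes of miR-181c-3p likewise stayed there with miR-181a-3p, 4 edits away, at 193. The pair miR-181a-3p and miR-181a-2-3p, 3 substitutions apart, gave no such reading, because miR-181a-2-3p was itself detected at 6.37, with probe means up to 33.5. The same held for the 5p arms, where every member was detected. There, miR-181d-5p (31.6) is 1 substitution from miR-181b-5p (144), and miR-181c-5p (6.32) is 1 base from miR-181a-5p (103). Whether RNA of the one arm added to the signal of the other was not tested for any of these pairs, the reading of MIR181A2 included, as the probe sequences were not used here.

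The seed was also followed outside the family, over the 2248 of 2549 miRNAs on the array with a mature sequence in RefSeq. Of these, miR-4262 (gACAUUCAgacuaccug) has the seed of the miR-181 5p arms and miR-4420 (gUCACUGAugucuguagcugag) that of miR-181b-3p. Neither was detected, and both had 0 of 20 spots well above background. Among the miRNAs searched, those detected with the ACAUUCA seed were the 4 miR-181 guide arms.

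Log2 signals were taken relative to an intensity of 143, the 75th percentile among spots of detected miRNAs. The spots of miR-181a-3p averaged 1.89 ± 0.06 (SD over replicate spots about their probe mean, 19 spots). Those of miR-181b-5p averaged 1.41 ± 0.07 (20 spots) and those of miR-181a-5p 0.94 ± 0.08 (20 spots). These 3 arms were thus brighter than the reference by many times the spread of their spots. Below it lay miR-181d-5p at -0.84 ± 0.18 (19 spots), miR-181c-5p at -3.17 ± 0.23 (20 spots) and miR-181a-2-3p at -3.59 ± 0.32 (20 spots). The values of all 6 arms depended on the processing by more than their SD, and the order of these last 2 was not resolved. With normexp background correction, miR-181a-3p became 1.54, miR-181b-5p 1.125, miR-181a-5p 0.735 and miR-181d-5p -0.52. The same correction gave -1.44 for miR-181c-5p and -1.42 for miR-181a-2-3p. The brightest probe alone gave -2.59 and -2.09 for these 2 arms. The value of -3.59 includes 5 spots of a probe at background. The median over the 6 detected members was 0.05.

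As a position in the brightness of the array, which is not abundance, the total gene signal of miR-181a-3p exceeded that of 87.4% of the 1133 detected miRNAs, with 142 brighter. For miR-181b-5p the share was 85.0%, for miR-181a-5p 81.3% and for miR-181d-5p 67.1%. At 32.1% and 31.7%, miR-181a-2-3p and miR-181c-5p stood in the lower part, and their signals differed by less than their errors. The deposited log2 values were 7.63 for miR-181a-3p, 7.19 for miR-181b-5p, 6.67 for miR-181a-5p, 5.07 for miR-181d-5p, 2.65 for miR-181a-2-3p and 2.64 for miR-181c-5p, against a floor of 2.32 at which miR-181c-3p stood.

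**Figure D3:**
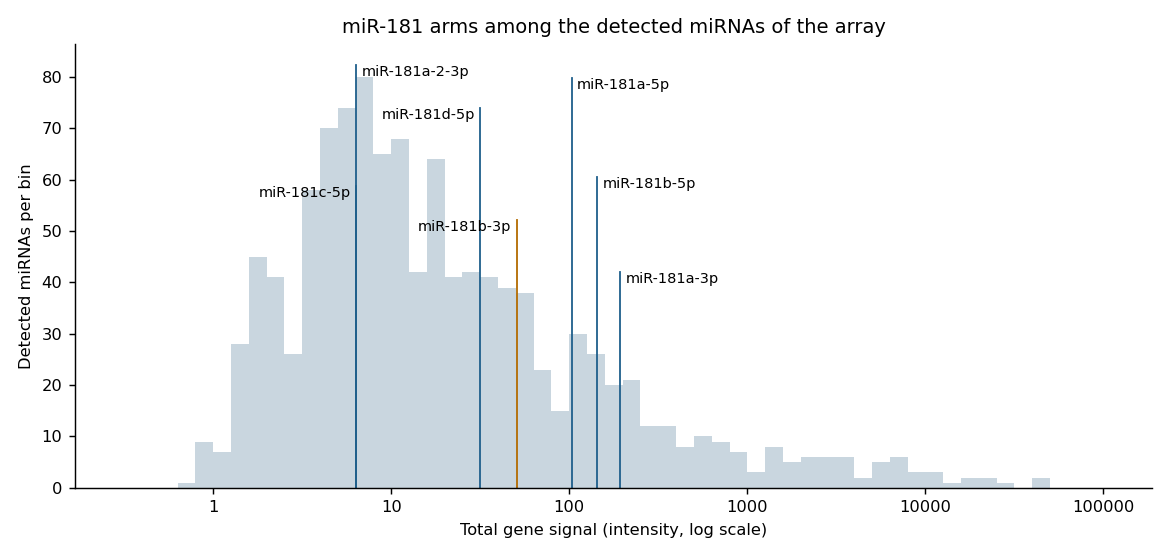
Number of detected miRNAs (y axis) by total gene signal (x axis, intensity, log scale, 1133 miRNAs) on the si-NC array, with vertical lines at the detected miR-181 arms (blue, members; orange, miR-181b-3p); line heights carry no value. The arms miR-181a-5p, miR-181b-5p and miR-181a-3p lie between 103 and 193, in the upper part of the distribution, and miR-181c-5p and miR-181a-2-3p coincide near 6.

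The probes of 1 arm did not always agree. The 2 probes of miR-181d-5p averaged 122 ± 14.0 and 50.6 ± 6.47 (SD, 10 and 9 spots), a log2 difference of 1.27 ± 0.08 (SE from replicate spots). The difference was 0.80 ± 0.03 for miR-181b-5p, with means of 498 and 287, and 0.71 ± 0.03 for miR-181a-5p, with means of 351 and 214. All of these were above the array median of 0.35 over 801 miRNAs, and that of miR-181d-5p exceeded 85.8% of them. The probes of miR-181a-3p agreed most closely, with means of 563 and 494 and a difference of 0.19 ± 0.03, below the array median. For miR-181a-2-3p the brighter pair of probes differed by 0.45 ± 0.10, and no difference is given against its dimmest probe, which had 0 of 5 spots well above background. For the 5p arms compared, differences between probes were larger than the spread of replicate spots, so a total gene signal depends on which probes enter it.

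Replicate spots of a probe agreed more closely than probes did. Over the 11 member probes for which 50% or more of spots were well above background, the coefficient of variation (CV) had a median of 6.10%, against 8.74% over all 1943 such probes of the array. It ran from 2.10% for the dimmer probe of miR-181a-3p to 12.8% for the dimmer probe of miR-181d-5p. Among these member probes, those with means from 214 to 563 had CVs from 2.10% to 6.10%. Those with means from 23.7 to 122 had CVs from 8.49% to 12.8%. The medians of the members and of the array were not matched for brightness.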

How the data were processed

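Per the labels, Cyanine 3-pCp was joined to total RNA with T4 RNA ligase, whereas the methods of the study describe labelled cDNA, and this was not settled here. Per the file headers, the authors extracted spot intensity with Feature Extraction 11.0.1.1, and the deposited intensity is background-subtracted and not normalized between arrays. The authors also deposited log2 values, quantile normalized in GeneSpring, with scale and floor read here from the values. Outlier spots (4.51% of miRNA spots) and control spots were left out.

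Detection was the flag of the software. Log2 spot signals were centred on the 75th percentile of all spots belonging to detected miRNAs. Probes were compared where at least 50% of their spots were well above background. Alternatives were other detection rules, percentiles, normexp (offset 50), inclusion of outlier spots or of dim probes, medians, the brightest probe and the deposited values. Spot calculations were tested on simulated data without outlier or dim spots, so the filters and signals near background were not covered. Python 3.11.15 with numpy 2.4.6, pandas 2.3.3 and matplotlib 3.10.9, and R 4.3.3 with limma 3.58.1, were used.

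Sequences and coordinates are from RefSeq on GRCh38.p14, with a mature sequence for 10 of 10 miR-181 arms. Hairpin neighbours were taken within 50 kb and enclosing genes by position, both on either strand. The array was designed on hg19, and none of its positions are printed. Named miRNAs were the members, other miR-181 arms, miRNAs sharing their seeds, and neighbours of the hairpins; the rule fixed the seed of the 5p arms, and the 3p seeds were added after the data were seen. Members and lists were chosen with earlier results of these data known. The single array limits the precision, and 2 of the 9 quality metrics that the scanner software gave for it were out of range.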

Additional observations from a re-analysis of the deposited data

How the results depend on the processing

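Over 7 results of the family and those of its single miRNAs, 116 alternative values were computed, of which 67 stayed within their limits and 49 moved, 38 of them values of single miRNAs. The limit was a ratio of 1.5 for counts and the Wilson interval for the share of arm pairs. For the rest it was an error from replicate spots or from the software. By that ratio, the fall from 6 to 4 members below was not labelled as moved. The count of detected members was 6 under 5 of the 6 other rules and 4 where every probe had to have enough spots above background, which removed miR-181a-2-3p and miR-181c-5p and left 1 of the 3 member 3p arms. The rules on 3 times the error and on the deposited floor give the flag by construction, so values under them could not move. Percentiles from the deposited values could not move either, because quantile normalization keeps the order of signals within an array. Nor could probe differences of arms without outlier spots when these were kept, or without dim probes when these were included. All of these are among the 67. No rule called miR-181c-3p. The share of arm pairs with both arms detected, 28.6%, was 22.0% with the rule on spots of 1 probe, 14.4% with the rule on negative controls, 11.6% with every probe and 16.7% with a signal of 5 or more. The median log2 signal of the members, 0.05, was 2.49 where the percentile was taken over all miRNA spots, whose reference is lower (26.3), and 0.54 with the brightest probe. That lower reference placed miR-181d-5p at 1.60, above it. The median percentile, 74.2, moved to 88.5 among all miRNAs, which adds the undetected ones below. Probes differed by a median of 0.71, which became 0.58 with normexp and 0.96 once dim probes were included, and the median CV, 6.10%, became 11.2% with them. Apart from these constructions the cause was not tested. Counting all 6 3p arms of the family, an alternative chosen after the data were seen, gave 3. No array could be left out and no paired analysis was possible because there was 1 array. Signal over background limits miR-181c-5p, whose error was 13.1% of its signal, and miR-181a-2-3p.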

Other observations

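The miR-23a cluster, whose members act in proliferation and cell survival, neighbours MIR181C and MIR181D. Among miRNAs on the array, it was the only other set with hairpins within 50 kb of a miR-181 hairpin in RefSeq, on either strand. Its arms gave total gene signals of 5961 ± 429 for miR-23a-3p, 2041 ± 146 for miR-27a-3p and 1657 ± 117 for miR-24-3p (errors from the software), each with 20 of 20 spots well above background. The opposite arms read 35.5 ± 1.89 for miR-23a-5p and 4.95 ± 0.497 for miR-27a-5p, and miR-24-2-5p was not detected. In brightness miR-23a-3p, miR-27a-3p and miR-24-3p thus exceeded 97.9%, 96.1% and 95.6% of detected miRNAs, where miR-181d-5p exceeded 67.1% and miR-181c-5p 31.7%. These are positions of different probes and not a comparison of abundance, and miR-24-3p is also made from a second hairpin elsewhere. Whether the cluster and the miR-181 hairpins share a transcript was not tested.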
